A study of Homo sapiens with 4 samples.

Results

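The genes described here encode the kinases, adaptors and ubiquitin ligase subunits that carry a signal from a receptor to NF-kB: CHUK, IKBKB and IKBKG of the IkB kinase (IKK) complex, the IKK-related kinases TBK1 and IKBKE, the receptor-proximal proteins RIPK1 and TRADD, and RNF31, RBCK1 and SHARPIN of the linear ubiquitin chain assembly complex (LUBAC). They were chosen by name, as 10 of the 22798 genes counted on their own strand, and every one of them had an entry in all 4 libraries. Nascent RNA was measured by Bru-seq in Karpas 299, an established human line of CD30-bearing anaplastic large cell lymphoma, which arises from T cells. In Bru-seq the cells take up bromouridine, here in the last 30 min of a 3 h treatment, and an antibody then pulls down RNA with the label, so reads come from transcripts made in that window. The libraries were cells given DMSO (the solvent control), cells given SM-164 (a bivalent Smac mimetic, which binds and antagonises inhibitor of apoptosis proteins), cells placed on Chinese hamster ovary (CHO) cells, and cells placed on CD30L+ CHO cells, which display the ligand of CD30. The last 2 were collected by gentle pipetting. No SM-164 dose is stated in the labels. Each condition had 1 library, so differences are between single libraries and were not checked in replicates.

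As background, ligand binding draws adaptors and the E3 ligases c-IAP1 and c-IAP2 to the receptor, and these ligases ubiquitinate RIPK1 and other proteins. LUBAC then adds linear ubiquitin chains, and NEMO, the product of IKBKG, binds them and brings in the IKK kinases that mark IkB proteins for destruction. SM-164 removes c-IAP proteins, and CD30 recruits them through TRAF adaptors, so both treatments bear on the c-IAP step of this scheme. TRADD, an adaptor at the receptor, does not lie downstream of that step.

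Library totals, worked back from the deposited signal and RPKM values, were between 26217590 and 45885630 reads. Of 7 genes named as markers of the lymphoma line, 5 had an RPKM (reads per kilobase of counted bases, scaled to the library total) of at least 0.5 in every library. ALK and TIAM2 did not reach it. The summed RPKM of these 7 genes was 54.9 with DMSO and 58.5 with SM-164, against 32.5 on CHO cells and 38.4 on CD30L+ CHO cells. Summed RPKM was 0.292 to 0.394 for 5 B cell markers, with MS4A1 at 0 in every library, and 1.06 to 1.53 for 5 myeloid markers, of which CSF1R reached 0.5 in every library, LYZ did on CHO cells and CD14 was at 0 with DMSO and SM-164. Stromal and epithelial markers summed to 6.90 to 10.7 over 9 genes, of which VIM alone reached 0.5. CD3D and CD247 alone among 5 T cell receptor and CD3 genes reached 0.5 in any library, CD3E and CD2 were at or near 0, and the sum was 1.36 to 2.75. The part of these differences in the values below was not tested.

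In every library the same 5 genes made up a higher group and the same 5 a lower group by RPKM, a scale per gene length. The order was graded, and the groups were not always set apart by the largest step. On CHO cells TRADD was 1.76 times SHARPIN, across the groups, and RNF31 was 1.79 times IKBKE, within the lower group. TBK1, RIPK1, IKBKB, TRADD and RBCK1 were always the 5 highest, at RPKM values from 1.37 (RBCK1 with DMSO) to 3.34 (IKBKB on CD30L+ CHO cells). SHARPIN, IKBKE, RNF31, CHUK and IKBKG were always the 5 lowest, from 0.942 (SHARPIN on CHO cells) down to 0.301 (IKBKG on CD30L+ CHO cells). IKBKG was the lowest gene in all 4 libraries. The median RPKM of expressed genes, those at 0.5 or more, was 1.34 to 1.397, so the higher group lay at or above that median and the lower group below it. Within the order, several neighbours did not differ beyond counting error. With DMSO these were TBK1 and RIPK1, IKBKE and RNF31, and RNF31 and CHUK. With SM-164 they were TRADD and TBK1, TBK1 and IKBKB, CHUK and RNF31, and RNF31 and IKBKG. On CHO cells they were IKBKB and TBK1, CHUK and RNF31, and IKBKE and IKBKG, and on CD30L+ CHO cells IKBKB and RIPK1, TRADD and RBCK1, SHARPIN and RNF31, and RNF31 and IKBKE.

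**Figure D1:**
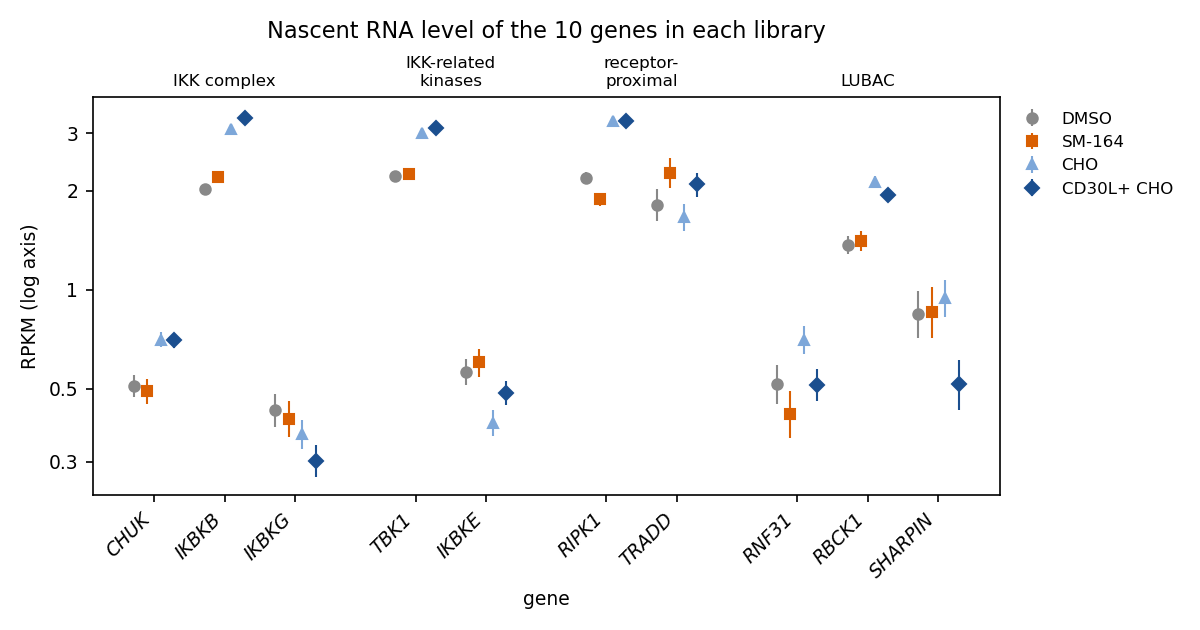
RPKM of each gene (log axis) in the 4 libraries, grouped by complex; points are single libraries and bars are exact Poisson 95% intervals on the reads, which cover counting error only. IKBKB, TBK1, RIPK1 and RBCK1 are higher in both co-culture libraries than in the DMSO and SM-164 libraries, TRADD is higher in each treated library than in its control, and SHARPIN is lowest on CD30L+ CHO cells.

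None of the 10 genes differed by 2-fold between either treated library and its control. In the same libraries 5 NF-kB pathway genes used as yardsticks, BIRC3 (c-IAP2), NFKBIA (IkB-alpha), TNFAIP3 (the ubiquitin editing enzyme A20), TRAF1 and RELB, were 2.58 to 6.48 times higher with SM-164 and 3.41 to 10.2 times higher on CD30L+ CHO cells. These 5 were picked with their ratios known. A gene was tested when it had 300 counted bases and its RPKM averaged 0.5 or more over both libraries, and called at 2-fold on the scale log2((RPKM + 0.25)/(RPKM + 0.25)), which understates differences of low genes. With SM-164, 0 of 8 tested genes were called, where 0.19% of all 7881 tested genes were called higher and 0.0634% lower. On CD30L+ CHO cells it was 0 of 8 again, where 0.979% of all 7661 tested genes were called higher and 0.731% lower. A count of 0 among 8 is near these background shares and is not a result about the genes. IKBKG missed the expression minimum in both comparisons, RNF31 in the first and IKBKE in the second; CHUK only just passed the first. Over all 10 genes the median log2 ratio was 0.02 with SM-164, beside -0.04 for all tested genes, and -0.01 on CD30L+ CHO cells, beside -0.12. TMM scaling, which sets library sizes by the bulk of genes, moved the second median of all genes by 0.17, so ratios near 0 in that comparison have no settled direction.

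Promoter sequence was available for 7 of the 10 genes, and it is set here beside that of 2 yardstick genes that hold the NF-kB consensus. The others are IKBKB, TRADD and SHARPIN. The windows run from 250 bases before to 50 bases after each RefSeq start site (GRCh38.p14) and are printed 5′ to 3′ on the strand of the gene. In NFKBIA (chr14:35404700-35404999, minus strand) and BIRC3 (chr11:102317234-102317533, plus strand) capitals mark matches to the 10-base NF-kB consensus on either strand. In TBK1 (chr12:64451870-64452169, plus strand) and RBCK1 (chr20:408049-408348, plus strand) capitals mark the ETS core CCGGAAG on either strand, and the window of IKBKE (chr1:206470226-206470525, plus strand) has neither.
NFKBIA: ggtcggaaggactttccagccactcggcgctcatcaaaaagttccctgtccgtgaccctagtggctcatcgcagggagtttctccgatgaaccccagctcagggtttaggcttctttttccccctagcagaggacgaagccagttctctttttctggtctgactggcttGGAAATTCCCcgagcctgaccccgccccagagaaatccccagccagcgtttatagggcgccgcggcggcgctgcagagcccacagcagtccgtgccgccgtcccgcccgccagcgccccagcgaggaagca
BIRC3: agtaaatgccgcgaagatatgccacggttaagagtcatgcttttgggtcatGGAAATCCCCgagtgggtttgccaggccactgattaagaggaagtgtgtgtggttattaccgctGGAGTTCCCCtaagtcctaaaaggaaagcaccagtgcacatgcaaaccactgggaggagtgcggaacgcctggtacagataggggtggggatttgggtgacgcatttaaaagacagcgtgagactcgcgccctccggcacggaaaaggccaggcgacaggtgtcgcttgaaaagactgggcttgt
TBK1: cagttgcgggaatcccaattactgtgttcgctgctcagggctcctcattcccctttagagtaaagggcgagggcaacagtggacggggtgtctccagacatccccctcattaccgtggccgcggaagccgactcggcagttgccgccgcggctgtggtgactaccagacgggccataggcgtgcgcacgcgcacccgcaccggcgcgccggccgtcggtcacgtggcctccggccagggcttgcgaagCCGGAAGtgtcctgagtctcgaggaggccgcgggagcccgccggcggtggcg
RBCK1: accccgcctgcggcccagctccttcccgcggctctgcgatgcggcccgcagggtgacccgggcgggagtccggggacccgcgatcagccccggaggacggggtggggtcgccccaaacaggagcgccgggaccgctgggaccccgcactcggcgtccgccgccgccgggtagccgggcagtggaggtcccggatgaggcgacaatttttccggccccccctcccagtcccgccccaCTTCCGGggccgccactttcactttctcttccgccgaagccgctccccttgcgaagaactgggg
IKBKE: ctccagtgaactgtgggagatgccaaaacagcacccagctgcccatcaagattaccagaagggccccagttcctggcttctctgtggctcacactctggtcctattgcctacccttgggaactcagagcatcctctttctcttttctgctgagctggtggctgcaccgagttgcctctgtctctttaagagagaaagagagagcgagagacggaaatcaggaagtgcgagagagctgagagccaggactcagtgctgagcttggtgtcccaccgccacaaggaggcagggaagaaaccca

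The NF-kB consensus was found in 0 of 13 windows of the 7 genes and in 11.3% of all 35116 windows. Of 4 yardstick genes with a window, 3 held it (NFKBIA, BIRC3 and TNFAIP3). TRAF1 did not, and it was 3.06-fold higher with SM-164 and 5.99-fold higher with CD30L. The part of promoter sequence in the ratios was not tested. The absence says only that these letters do not occur in these windows. The ETS core CCGGAAG occurred in 7 of the 13 windows, from CHUK, IKBKG, RBCK1, RNF31 and TBK1, and in 10.3% of all windows. Several of those windows are of IKBKG, and by gene the count is 5 of 7. Shares by gene over all genes were not computed, so the counts by gene, here and for the yardsticks, have no background. The core holds a CpG site (C followed by G). CpG sites per window ran from 5 (IKBKE) to 37 (RIPK1) in the 7 genes, where the median of all windows was 14. The part of base composition in this share was not tested. An interferon response motif, 2 copies of GAAA with any 2 bases between them, on either strand, occurred in 4 of the 13 windows, from RBCK1, RIPK1 and RNF31, and in 3.57% of all windows. Of the other motifs searched on both strands, the AP-1 motif TGANTCA occurred in 2 windows, both of IKBKG, against 7.71% of all windows. A STAT motif, TTC and GAA with any 3 bases between them, occurred in 0 windows of the 7 genes, against 7.66%. The GC box GGGCGG occurred in 7 of the 13 windows, from IKBKG, RBCK1, RIPK1 and RNF31, against 44.95%. Matches to different motifs did not overlap in these windows. Of the windows of RIPK1 and of IKBKG, 2 each share bases. The interferon match and a GC box of RIPK1 lie at the same bases in both. ETS cores of IKBKG do so too, so these window counts repeat some sites. These windows were not compared with the start sites used for counting, which are on hg19.

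The IKK kinase genes differed little from control in both treated libraries. CHUK encodes IKK-alpha, which also acts downstream of the kinase NIK in the non-canonical pathway, and lies on chromosome 10 from 101948124 to 101989344 (hg19, as are all gene positions below). Its RPKM was 0.510 with DMSO, 0.490 with SM-164, 0.705 on CHO cells and 0.702 on CD30L+ CHO cells. The ratio was 0.962 with SM-164 (95% interval 0.856 to 1.08) and 0.995 with CD30L (0.921 to 1.07), and both intervals contain 1. Such intervals, exact for the ratio of rounded reads over the library totals, cover counting error only. IKBKB encodes IKK-beta, the main kinase of the canonical pathway, and lies on chromosome 8 from 42128820 to 42190171. Its RPKM was 2.03 with DMSO, 2.21 with SM-164, 3.08 on CHO cells and 3.34 on CD30L+ CHO cells. It was 1.09-fold (95% interval 1.04 to 1.14) higher with SM-164 and 1.09-fold (95% interval 1.05 to 1.12) higher with CD30L. These small differences kept their sign under every scaling tried. Their equal size did not hold under TMM scaling, where the log2 ratios were 0.15 with SM-164 and 0.30 with CD30L. In bulk RNA, fewer cells of a kind and less RNA per cell cannot be told apart.

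IKBKG encodes NEMO, the regulatory subunit that binds ubiquitin chains, and lies on chromosome X from 153770459 to 153793261. Its RPKM was 0.430 with DMSO, 0.405 with SM-164, 0.363 on CHO cells and 0.301 on CD30L+ CHO cells, the lowest on CD30L+ CHO cells. The ratio was 0.830 there (0.712 to 0.967) and 0.942 with SM-164 (0.792 to 1.12). On the log2 scale the CD30L difference was -0.15, and -0.04 under TMM scaling. IKBKG is below the expression minimum and has a near-identical partial copy, so its counts are uncertain. IKBKB was read 3.99 to 4.76 times as often per base as CHUK over the 4 libraries. The ratio of IKBKB to IKBKG per base spread more widely: it was 4.73 (4.21 to 5.33) with DMSO, 5.46 (4.79 to 6.25) with SM-164, 8.48 (7.65 to 9.42) on CHO cells and 11.1 (9.91 to 12.4) on CD30L+ CHO cells.

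TBK1 and IKBKE encode the kinases TBK1 and IKK-epsilon, which phosphorylate interferon regulatory factors. TBK1 lies on chromosome 12 from 64845840 to 64895899, and its RPKM was 2.23 with DMSO, 2.25 with SM-164, 2.99 on CHO cells and 3.11 on CD30L+ CHO cells. It was 1.01-fold (95% interval 0.964 to 1.06) with SM-164 and 1.04-fold (95% interval 1.01 to 1.08) with CD30L; the second interval lies just above 1. IKBKE lies on chromosome 1 from 206643586 to 206670223, and its RPKM was 0.561 with DMSO, 0.601 with SM-164, 0.394 on CHO cells and 0.486 on CD30L+ CHO cells. It was 1.23-fold (95% interval 1.09 to 1.39) higher with CD30L, an interval above 1 at a level below the expression minimum, and 1.07-fold (95% interval 0.934 to 1.22) higher with SM-164. Of the 10 genes, IKBKE had the lowest ratio between the control libraries, as given below. TBK1 was read 3.76 to 3.96 times as often per base as IKBKE in the drug experiment and 6.41 to 7.58 times in the co-cultures.

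TRADD, which encodes the death domain adaptor of TNF receptor 1, had the highest of the 10 ratios in both comparisons. It lies on chromosome 16 from 67188089 to 67193812, and its RPKM was 1.81 with DMSO, 2.27 with SM-164, 1.66 on CHO cells and 2.09 on CD30L+ CHO cells. It was 1.25-fold (95% interval 1.07 to 1.46) higher with SM-164 and 1.26-fold (95% interval 1.11 to 1.43) higher with CD30L, with 322 estimated reads in the DMSO library and 436 in the CHO library. Both treated libraries lay above both control libraries. On the log2 scale these were 0.29, rank 264 of 7881 tested genes, and 0.29, rank 519 of 7661. RIPK1, the kinase and scaffold that c-IAP proteins ubiquitinate, lies on chromosome 6 from 3077058 to 3115421, and its RPKM was 2.20 with DMSO, 1.88 with SM-164, 3.27 on CHO cells and 3.25 on CD30L+ CHO cells. It was at 0.858 of the DMSO level with SM-164 (0.808 to 0.910) and at 0.995 of the CHO level with CD30L (0.959 to 1.03). The ratio of RIPK1 to TRADD per base was 1.21 (1.08 to 1.36) with DMSO and 0.829 (0.738 to 0.933) with SM-164, and 1.97 (1.79 to 2.18) on CHO cells and 1.56 (1.43 to 1.70) on CD30L+ CHO cells, so it was lower in each treated library than in its control.

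Of the LUBAC genes, SHARPIN and RNF31 were lower on CD30L+ CHO cells than on CHO cells under every scaling tried. RBCK1 was lower too, but not under TMM scaling or after a trend with gene length was subtracted. SHARPIN, an accessory subunit, lies on chromosome 8 from 145153536 to 145159140, and its RPKM was 0.845 with DMSO, 0.857 with SM-164, 0.942 on CHO cells and 0.515 on CD30L+ CHO cells. The CD30L library stood alone, with 131 estimated reads against 242 on CHO cells, a ratio of 0.545 (95% interval 0.438 to 0.677). Its log2 ratio, -0.64, had rank 7372 of 7661 counted from the highest. With SM-164 the ratio was 1.01 (0.793 to 1.30). RNF31 encodes HOIP, the catalytic subunit, and lies on chromosome 14 from 24616659 to 24629870. Its RPKM was 0.517 with DMSO, 0.419 with SM-164, 0.704 on CHO cells and 0.514 on CD30L+ CHO cells, and each treated library lay below its control. The ratio was 0.729 with CD30L (0.628 to 0.846) and 0.810 with SM-164 (0.651 to 1.00), where the interval reaches 1. RBCK1 encodes HOIL-1 and lies on chromosome 20 from 388709 to 411610. Its RPKM was 1.37 with DMSO, 1.41 with SM-164, 2.13 on CHO cells and 1.94 on CD30L+ CHO cells, a ratio of 0.907 with CD30L (0.853 to 0.963) and of 1.03 with SM-164 (0.936 to 1.13). The log2 ratio of RBCK1 with CD30L, -0.13, turned positive under TMM scaling (0.06). SHARPIN and RNF31 stayed lower, at -0.49 and -0.18. Per base, SHARPIN was read 1.34 (1.14 to 1.57) times as often as RNF31 on CHO cells and 0.999 (0.808 to 1.23) times on CD30L+ CHO cells, against 1.63 (1.32 to 2.03) with DMSO and 2.05 (1.60 to 2.62) with SM-164. The intervals overlap within each pair, which does not show that the ratios are equal, and the difference within a pair was not tested.

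**Figure D2:**
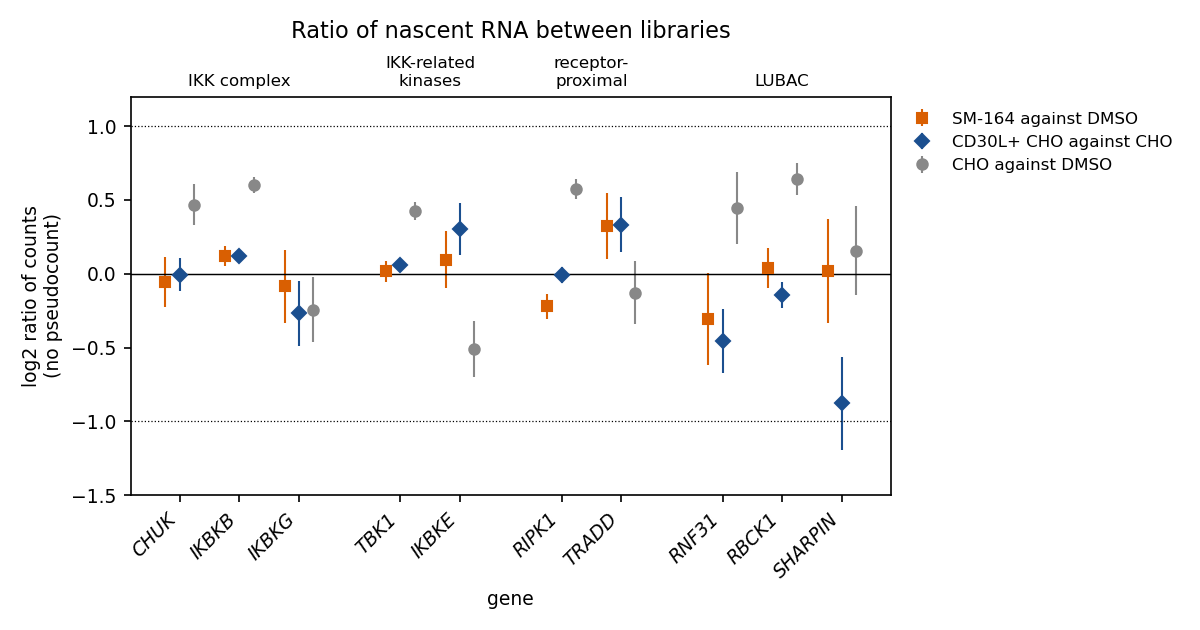
Log2 ratio of counts over library totals, without a pseudocount, for each gene in 3 comparisons of single libraries; bars are exact 95% counting intervals and dotted lines mark 2-fold. Only the interval of SHARPIN with CD30L crosses a dotted line, TRADD is higher under both treatments, and the control comparison has the highest ratio for CHUK, IKBKB, TBK1, RIPK1, RNF31, RBCK1 and SHARPIN.

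Counting intervals excluded 1 for 3 of the 8 tested genes with SM-164: IKBKB and TRADD were above it, and RIPK1 was below. Over all tested genes 15.7% lay above 1 and 29.4% below by the same rule. With CD30L the interval lay above 1 for IKBKB, TBK1 and TRADD and below 1 for RNF31, RBCK1 and SHARPIN, 3 each of 8 tested, against 18.3% above and 55.7% below over all tested genes. Genes with more reads pass this rule at smaller differences. At 1.5-fold on the scale with 0.25 added, SHARPIN alone was called with CD30L, on the lower side, where 4.99% of all tested genes were lower and 2.62% higher. That call was lost under TMM scaling (-0.49), when ratios were centred on the all-gene median (-0.52), after subtraction of the length trend (-0.43) and with a pseudocount of 1 (-0.36), all as log2 ratios. With SM-164 the count at 1.5-fold was 0 of 8, where 1.1% were lower and 0.787% higher. The 2 treatment comparisons share no library, so their log2 ratios can be subtracted, here those of counts over library totals with nothing added. The CD30L ratio minus the SM-164 ratio was -0.90 (95% interval -1.36 to -0.43) for SHARPIN, -0.18 (95% interval -0.34 to -0.02) for RBCK1 and 0.21 (95% interval 0.11 to 0.31) for RIPK1, the 3 genes whose interval excluded 0. It was 0.01 (95% interval -0.28 to 0.29) for TRADD and within 0.01 of 0 for IKBKB, with an interval from -0.08 to 0.08. Under TMM scaling the difference was -0.74 for SHARPIN, -0.02 for RBCK1 and 0.37 for RIPK1, so that of RBCK1 was close to 0. For IKBKB it was 0.16 under TMM scaling, outside the interval given above. For TBK1 it was 0.20, where the interval without that scaling was -0.05 to 0.13. With RPKM + 1 in place of counts the difference for SHARPIN was -0.37.

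For CHUK, IKBKB, TBK1, IKBKE, RIPK1 and RBCK1 the control libraries differed from each other more than either treated library did from its control. Among genes that were higher on CHO cells than with DMSO, the ratio was 1.56-fold for RBCK1 (95% interval 1.44 to 1.68), 1.51-fold for IKBKB (95% interval 1.46 to 1.57) and 1.49-fold for RIPK1 (95% interval 1.42 to 1.56). It was 1.38-fold for CHUK (95% interval 1.26 to 1.52) and 1.36-fold for RNF31 (95% interval 1.15 to 1.61). For TBK1 it was 1.34-fold, with a lower bound of 1.29. IKBKE was lower, at 0.702 of the DMSO level (0.617 to 0.800), and so was IKBKG, at 0.845 (0.725 to 0.986). Intervals contained 1 for TRADD, at 0.916 (0.791 to 1.06), and SHARPIN, at 1.11 (0.903 to 1.38). Again 0 of 8 tested genes reached 2-fold, where 0.879% of 8081 tested genes were called higher and 4.52% lower. At 1.5-fold on the same scale it was also 0, where 7.07% were higher and 10.7% lower. The interval lay above 1 for 6 of the 8, against 45.9% of all tested genes, and below 1 for 0, against 34.0%. The median absolute log2 ratio of the 10 genes was 0.33 here, 0.06 with SM-164 and 0.14 with CD30L, beside 0.27, 0.09 and 0.17 for all tested genes. This comparison shares a control library with each of the others. Contact with CHO cells and the collection by pipetting changed together in it, and the labels name the solvent for the DMSO library and not for the CHO library. These differences cannot be told apart. The labels do not say whether hamster reads were removed from the co-culture libraries, and their part in the co-culture values was not tested.

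Ratios with CD30L varied with gene length across all tested genes, so the genes are set beside others of their length. SHARPIN and TRADD are the shortest of the 10, with 5605 and 5724 counted bases, and IKBKB is the longest, with 61352. The running median at the length of SHARPIN was -0.21 and at that of TRADD -0.22. The 2 genes lay on opposite sides of it: after subtraction SHARPIN was at -0.43 and TRADD at 0.51. RNF31 was at -0.17 and RBCK1 at 0.00. With SM-164 TRADD was at 0.47 after the same subtraction, RIPK1 at -0.16 and SHARPIN at 0.19.

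**Figure D3:**
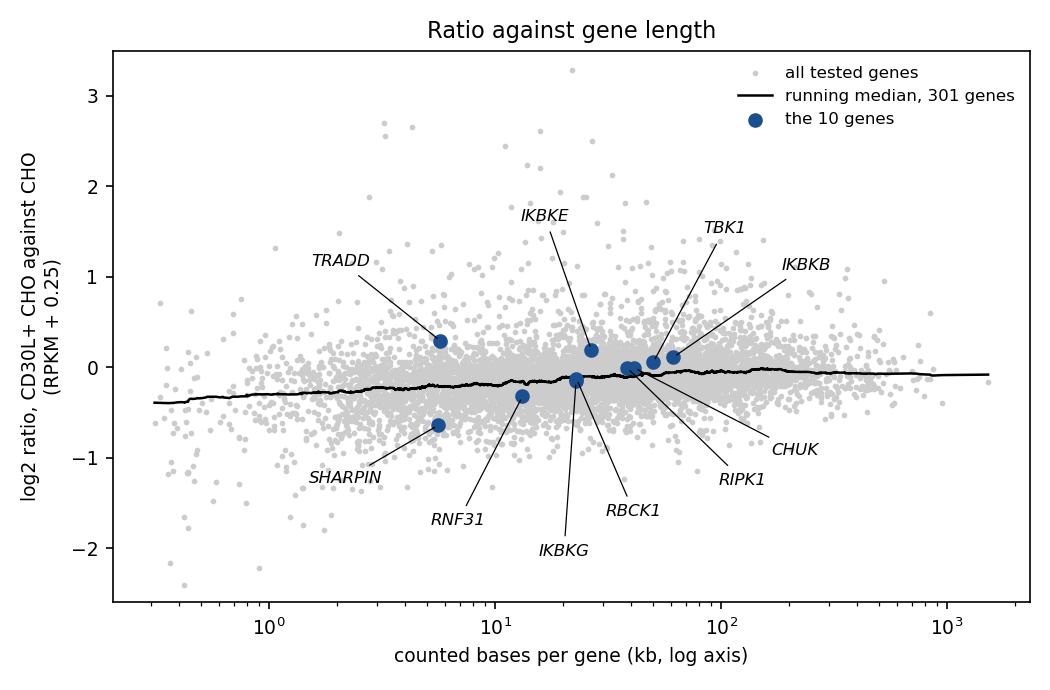
Log2 ratio of CD30L+ CHO against CHO (RPKM + 0.25) plotted against counted bases per gene (log axis) for 7661 tested genes in grey, with their running median as a line and the 10 genes in blue. TRADD and SHARPIN have nearly the same length and lie above and below the line, while CHUK, RIPK1, TBK1 and IKBKB lie near or just above it.

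Reads on the opposite strand were few for 7 of the 10 genes, at no more than 9 in any library. CHUK had the most. Its antisense reads were 135 with DMSO, 95.4 with SM-164, 424 on CHO cells and 252 on CD30L+ CHO cells. As a share of reads on both strands these were 17.2% (14.6% to 20.0%), 15.2% (12.5% to 18.3%), 24.1% (22.1% to 26.2%) and 16.1% (14.3% to 18.0%), the intervals being exact binomial at 95%. The CHO library stood above the other 3. Per library total the antisense reads on CD30L+ CHO cells were 0.599 (95% interval 0.510 to 0.702) of those on CHO cells, while the sense ratio of CHUK was 0.995. RBCK1 had 8, 2, 58.9 and 24 antisense reads in the same order, and SHARPIN 7, 6, 31 and 16.9. Both were higher in the co-cultures. The antisense share of SHARPIN was 11.4% (7.85% to 15.7%) on CHO cells and 11.5% (6.84% to 17.8%) on CD30L+ CHO cells, so it was nearly equal in the pair whose sense reads differed. The labels state strand marking for certain samples only, so a few opposite-strand reads of a neighbour or of the library method cannot be told apart from antisense RNA.

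Genes next to SHARPIN were also lower on CD30L+ CHO cells. MAF1, a repressor of RNA polymerase III, starts 164 bases away on the other strand, and CYC1, which encodes cytochrome c1, ends 1107 bases away. They were chosen by position, within 2000 bases. With CD30L the log2 ratio was -0.48 for MAF1 and -0.82 for CYC1, beside -0.64 for SHARPIN. With SM-164 they were -0.62 and -0.22, beside 0.02. Between the controls they were -1.23 and -0.78, beside 0.12. With SM-164 and between the controls the interval of SHARPIN contained 1, so its direction there is not settled. With CD30L, 55.7% of all tested genes had an interval below 1. RNF31 lies 803 bases from PSME2, a proteasome activator subunit gene, and 551 bases from IRF9, an interferon signalling gene. With CD30L the log2 ratio of PSME2 was within 0.01 of 0 and that of IRF9 was -0.17, beside -0.32 for RNF31. Among 7210 genes tested in both treatment comparisons, the log2 ratios nearest to those of SHARPIN were those of ATP6V0B (Euclidean distance 0.01), NPHP4 (0.03) and NCRUPAR (0.03), over 4 libraries.

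Other genes of the pathway were read from 11 lists, with 62 genes that had an entry. They hold regulators upstream of, beside and downstream of the 10 genes. The lists were chosen with earlier results of these data known, so the shares below describe them and test nothing. With SM-164, 1 of 48 tested genes was 2-fold higher and 0 lower, where 0.19% of all tested genes were higher; the 1 was TNFAIP3, which is also a yardstick. With CD30L, 5 of 49 were 2-fold higher and 0 lower, where 0.979% of all tested genes were higher. Those were TNFAIP3, CYLD, a deubiquitinase that removes linear and lysine-63 chains (2.21-fold by counts), TNIP1, which encodes the ubiquitin-binding protein ABIN-1 (2.30-fold), TANK, an adaptor of TBK1 (2.67-fold), and the death receptor gene FAS (4.28-fold). The median log2 ratio over the lists was 0.08 with SM-164, beside -0.04 for all tested genes, and 0.08 with CD30L, beside -0.12. Between the controls 0 of 50 were 2-fold higher, where 0.879% of all tested genes were.

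Genes whose products act on the same chains or bind the same kinases included some with larger log2 ratios than the 10 genes themselves. TANK was at 0.82 with SM-164 and 1.39 with CD30L, where its partner TBK1 was at 0.02 and 0.05. All 5 tested adaptors of TBK1 and IKK-epsilon had an interval above 1 with CD30L, from AZI2 at 0.14 upward, against 18.3% of all tested genes. With SM-164, 2 of the 5 did, against 15.7%, and the interval of AZI2, at -0.19, lay below 1. The difference between the comparisons was not tested. TRAF3, which restrains NIK, was at 0.61 and 0.91, while MAVS, the mitochondrial adaptor of RNA sensing, was lower in both, at -0.28 and -0.32. Of the TAK1 complex, which activates IKK, TAB2 was at 0.39 and 0.83. MAP3K7, the kinase itself, was lowest of its 4 genes with SM-164, at -0.04, and TAB1 with CD30L, at -0.23. Of the ABIN proteins, TNIP1 was at 0.52 and 1.04, and TNIP2 at 0.26 and 0.58.

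FADD, the death domain adaptor that binds TRADD and caspase-8, was the lowest of its list in both comparisons, at -0.46 with SM-164 and -0.81 with CD30L. FAS was the highest of the same list, at 0.68 and 1.88. MALT1, a paracaspase, was at 0.18 and 0.41. RIPK2, a relative of RIPK1, was at 0.22 and 0.16, whereas RIPK1 was at -0.20 and -0.01; DSTYK was at -0.05 and -0.12. MAP3K8 was the highest of the kinases that act on IKK, at 0.33 and 0.31; the lowest were MAP3K1 with SM-164, at -0.01, and MAP3K14, which encodes NIK, with CD30L, at -0.22. Of 6 chaperones and binding proteins of IKK, 4 had an interval below 1 in each comparison, where 29.4% of all tested genes did with SM-164 and 55.7% with CD30L. HSP90AA1 was the lowest with SM-164, at -0.54, NKRF was the lowest with CD30L, at -0.35, and ERC1 was the highest in both, at 0.07 and 0.06. The tested ubiquitin E2 genes spanned -0.09 (UBE2V1) to 0.12 (UBE2L3, the partner of LUBAC) with SM-164 and -0.21 (UBE2L3) to 0.13 (UBE2D3) with CD30L. The deubiquitinases other than TNFAIP3 and CYLD reached down to USP4 at -0.06 with SM-164 and USP21 at -0.34 with CD30L.

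**Figure D4:**
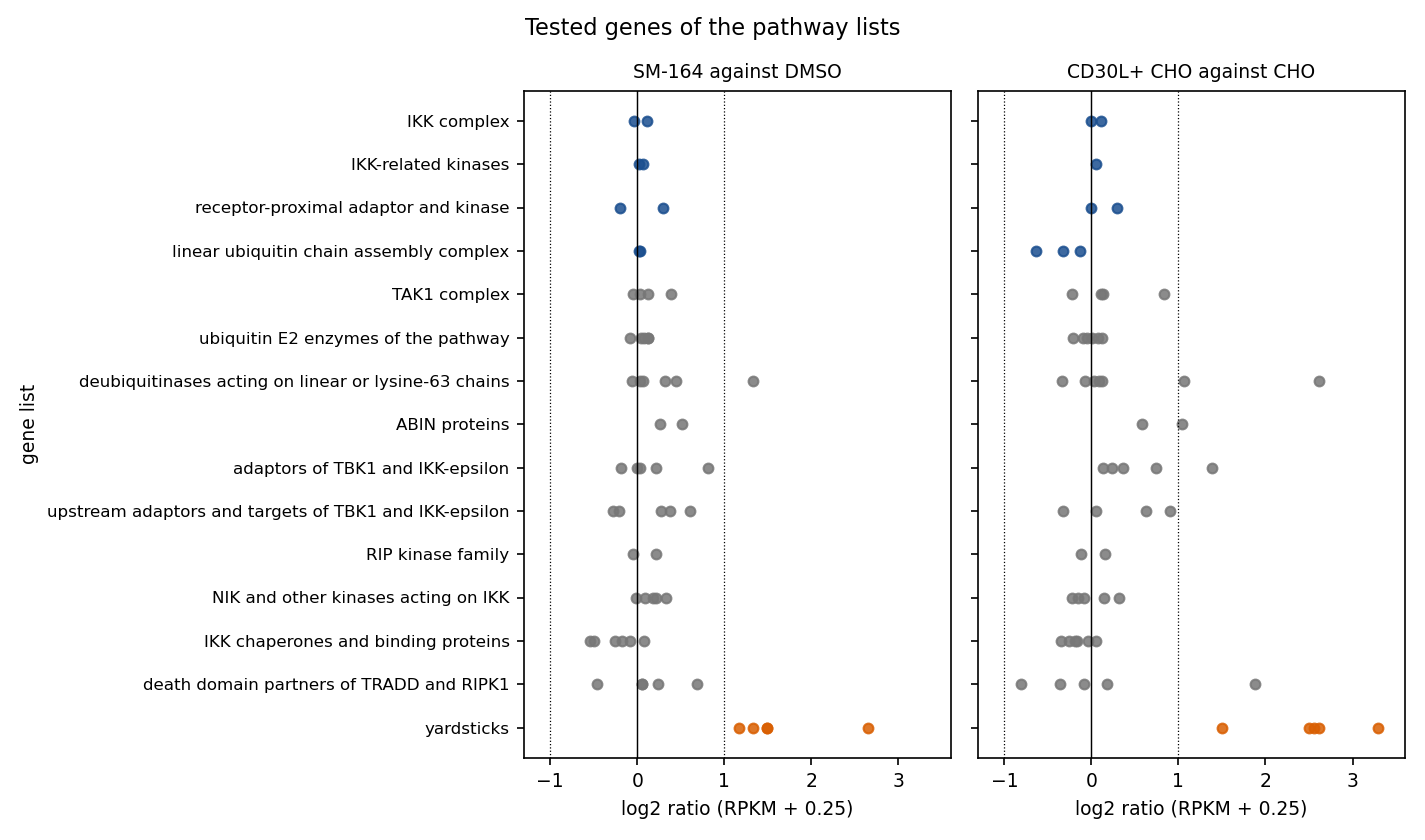
Log2 ratio (RPKM + 0.25) of tested genes, 1 point each, in the 4 groups of the 10 genes (blue), 10 of the 11 pathway lists (grey) and the yardsticks (orange), for SM-164 against DMSO on the left and CD30L+ CHO against CHO on the right; dotted lines mark 2-fold. The blue points lie between the dotted lines in both panels, all 5 orange points lie beyond the upper line, and TNFAIP3 appears both in grey and in orange.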

How the data were processed

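Each of 4 libraries had 1 file. The deposited files give, per gene and strand, an estimated read count over exons and introns, a signal (reads per counted base) and an RPKM, per the file headers. CASAVA 1.8.2, Bowtie 0.12.8, TopHat 1.4.1, bedtools 2.16.2 and hg19 are named in the submitters' processing notes; neither labels nor headers name an annotation. Estimated counts deposited by the authors were rounded for intervals. Ratios used the deposited RPKM, as log2((RPKM + 0.25)/(RPKM + 0.25)), and the count ratio over library totals carries an exact conditional 95% interval. The labels mention no molecular identifiers, so reads may not be independent molecules and all intervals cover counting error only, and a 0 allows up to 3 reads. The deposited signal was checked against counts over bases. Each library total was worked back as the median, over features with signal, of the deposited signal divided by the deposited RPKM. Of 44807 features, 22984 lie on the sense strand; 186 repeats of a symbol were dropped, keeping the row with most counted bases. With 1 library per condition no p-value was computed.

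The 10 genes, the pathway lists, the markers and the yardsticks were chosen with earlier results of these data known. The text names all 10 genes and the yardsticks, the highest, lowest and 2-fold genes of each list, and the 3 genes nearest to the one whose log2 ratio with CD30L was farthest from 0; genes next to the 10 were added by position. Alternatives were pseudocounts of 0.1 and 1, expression minimums of 0 and 1 RPKM, 1000 bases, other scalings (edgeR 4.0.16 TMM in R 4.3.3), a length trend, summed repeats and a 1.5-fold threshold. Some genes that these rules name are not reported here. Promoters are from RefSeq, matched by symbol for 7 of 10 genes. Python 3.11.15, numpy 2.4.6, pandas 2.3.3 and scipy 1.17.1 were used, and the scripts were tested on simulated data.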

Additional observations from a re-analysis of the deposited data

How the results depend on the processing

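The median log2 ratio of the 10 genes with CD30L, -0.01, was 0.16 under TMM scaling, while the median of all tested genes went from -0.12 to 0.06. At a 1.5-fold threshold 1 gene, SHARPIN, was called lower with CD30L, a call lost under the other scalings, the length trend and a pseudocount of 1, and 0 were at 2-fold. For single genes, 204 of 240 alternative values over 40 ratios and differences stayed within the counting interval. The 36 others came from TMM scaling (12), the length trend (11), a median of all genes set to 0 (7) and a pseudocount of 1 (6). With CD30L, CHUK and RIPK1 were below 0 by less than 0.01 and turned positive under TMM, at 0.15 and 0.18, and RBCK1 did so at 0.06. TRADD, IKBKB, TBK1 and IKBKE stayed above 0 and SHARPIN, RNF31 and IKBKG below 0 with CD30L under every alternative run. The expression and base minimums decide only which genes are counted as tested, and do not enter a single ratio or the median over 10 genes. The lowest read counts were 126 for SHARPIN and 145 for RNF31, both with SM-164. No paired analysis was possible because each condition has 1 library.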
